A study of Mus musculus with 12 samples.

Results

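The protein part of the cytosolic ribosome is made by one large, coordinately expressed gene family, and its messenger RNAs were followed here in mouse embryonic stem cells expressing mDUX. The members are the genes whose symbol is Rpl or Rps followed by digits, with an optional short suffix, together with Rplp0, Rplp1, Rplp2 and Rpsa; rows named with -ps and the Rps6k kinases were left out. The rule found 89 genes, 36 of the small and 53 of the large subunit, among 27776 genes in the transient table and 27590 in each table of the stable line. It used names alone and no measured value. Of the 89, 86 passed the filter on low counts in the transient comparison and 88 in each comparison of the stable line.

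Ribosomes are assembled in the nucleolus from ribosomal RNA and a set of ribosomal proteins, so the proteins are needed in matched amounts. Most of the genes are housekeeping genes whose mRNA begins with a tract of pyrimidines, the 5′ terminal oligopyrimidine or TOP motif, through which the mTOR kinase and LARP1 set how much protein the mRNA yields. In embryonic stem cells these mRNAs are abundant, and the family has left many processed copies of its mRNAs in the genome, which short reads can match as well as they match the genes themselves.

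The study expressed mDUX, a double-homeobox transcription factor that activates genes and MERVL retroviruses of the 2-cell embryo, for 24 h. The 12 libraries form 6 groups of 2, and each comparison has a table of its own. In the transient set, stem cells received a codon-altered mDux transgene without a tag or a control, and 50 bp single-end reads were made. The sample labels give the control samples the same transgene as the mDux samples, while titles and columns call them control, so the transient directions rest on the titles; the 7 markers of the 2-cell-like state summed to 69.7 and 70.3 CPM of gene reads in the libraries titled control and to 772 and 807 in those titled mDux. In the stable set, single-cell clones carried pCW57.1, a lentivirus with TRE::3xHA-mDux, which is induced by doxycycline, and the reporter MERVL::EGFP, under puromycin and G418; 125 bp paired-end reads were made of cells without doxycycline, of cells with doxycycline, and of doxycycline-treated cells sorted into GFP-positive and GFP-negative. All 4 stable groups carried both transgenes and none had doxycycline without mDux, so the drug and the factor cannot be told apart in the unsorted comparison, and both sorted groups had the drug. All cells were grown on gelatin with serum, leukemia inhibitory factor and 2i. The 2 libraries of a group, called A and B, are not stated to be separate cultures, and a p-value here reflects only how these libraries vary, possibly for technical reasons.

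Gene reads came to 16101509 to 20506060 per transient library, 9555044 to 15468715 per unsorted library and 26446154 to 51358607 per sorted library. All 8 stem cell markers were above 1 CPM in all 12 libraries, and their summed level was 8262 to 8360 CPM of gene reads in untreated and 4187 to 4398 in doxycycline-treated libraries, 5614 to 5686 in the GFP-negative group and 3274 to 3445 in the GFP-positive one. The 7 markers of the 2-cell-like state summed to 7.39 to 9.50 without doxycycline and 8517 to 8828 with it, and 134 to 145 in the GFP-negative and 9899 to 10202 in the GFP-positive group. Feeder fibroblast markers summed to 8.53 to 10.7 without and 25.8 to 26.6 with doxycycline, and to 7.28 to 7.53 and 19.6 to 21.5 in the sorted groups, negative first. Neuroectoderm markers summed to 79.3 to 84.8 without and 134 to 135 with doxycycline, and to 21.6 to 21.8 and 43.0 to 44.4 in the sorted groups. Trophectoderm markers summed to 53.2 to 53.6 without and 19.5 to 19.99 with doxycycline, and to 38.5 to 39.4 in GFP-negative and 15.9 to 16.4 in GFP-positive libraries. Endoderm markers summed to 2.32 to 2.65 and 8.82 to 9.0, and to 0.993 to 1.0 and 3.59 to 4.08, in the same order, and mesoderm markers to 5.49 to 6.4 and 4.50 to 5.13, and to 6.51 to 6.70 and 3.29 to 3.92. In the stable line, 2 to 5 of 7 feeder and 1 to 3 of 3 neuroectoderm markers were above 1 CPM of gene reads. Of the 4 endoderm markers, 0 to 3 were. These sums thus rest on few genes and do not identify cells of these types. How far the shifts in marker sums enter the results on ribosomal protein genes was not tested. In bulk RNA, fewer cells of a type and less RNA per cell cannot be told apart.

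Reads of a member can match its copies, so the sequences come first. In GENCODE (release M21, GRCm38), 84 of the 89 members are protein-coding and 5 are processed pseudogenes despite their gene-like names: Rpl6l, Rps12l1, Rps3a2, Rps3a3 and, as a transcribed one, Rps4l. The main transcript of each member was cut into overlapping windows of 50 bases, the read length of the transient set, and each window was looked for in the transcripts of every other annotated gene. The median member shared 43.9% of its windows with another gene, 37 members shared at least 50% of them, and 10 shared under 10%. Rps27 shared 98.7%, Rps6 84.6%, Rpl10 85.4% and Rplp0 41.8%.

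The pair Rpl10 and Rpl10l shows both ends of this range. Rpl10 is the X-linked gene of a large subunit protein next to the peptidyl transferase centre (chromosome X, plus strand); Rpl10l is its intronless autosomal copy (chromosome 12, minus strand), known in the mouse for replacing Rpl10 in male meiosis, when the X chromosome is silent. The first 60 coding bases of both are printed because the ratio of these genes changed in the same direction in both stable-line comparisons; capitals mark the 9 positions at which they differ.
Rpl10: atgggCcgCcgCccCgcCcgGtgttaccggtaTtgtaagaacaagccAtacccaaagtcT
Rpl10l: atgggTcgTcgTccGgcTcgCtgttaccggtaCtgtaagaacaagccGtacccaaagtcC
Over the 645 coding bases, 84.8% were identical, and the longest identical run was 23 bases, shorter than a read. Rpl10l shared 7.60% of its 50-base windows with any other gene, so nearly all of its windows are its own, while Rpl10 shared most of its windows with its processed copies, first of all Rpl10-ps3.

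Start sites were described from RefSeq promoters (GRCm38.p6), which held 64 of the 89 members. A pyrimidine run, here a C within 5 bases of the annotated start followed by at least 4 of C or T, was found in 29 of 64 members (45.3%), against 21.2% of the 27025 genes in the table. The motif CCGGAAG, searched on both strands of the 300 bases, was found in 40.6% of the members and 9.93% of all genes, and CACGTG in 9.38% and 8.09%. Windows of 30 bases centred on the annotated start, with the run in capitals, are printed for 4 members called in the same direction in both stable-line comparisons, picked after their values were seen from those with a long run: Rpl7a and Rps10 were higher in both with TMM factors (Rps10 had -0.02 in GFP-positive cells with gene totals), and Rpl15 and Rpl27a were lower in both.
Rpl7a (chr2:26910792-26910821, plus strand): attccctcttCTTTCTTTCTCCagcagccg
Rps10 (chr17:27635230-27635259, minus strand): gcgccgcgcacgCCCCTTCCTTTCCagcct
Rpl15 (chr14:18270972-18271001, minus strand): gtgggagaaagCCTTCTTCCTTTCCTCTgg
Rpl27a (chr7:109519180-109519209, plus strand): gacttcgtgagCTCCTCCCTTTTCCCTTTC
These runs are 12 to 20 pyrimidines long, that of Rpl27a reaching past the window. Other members called the same way in both, such as Rplp0, Rpl10l and Rpl10, have no run by this rule, and Rps27l has one of 5 bases at an annotated start. Runs beginning more than 5 bases from the annotated start were not counted, and the windows of Rpl4, Rpl13 and Rps12 hold one there. A member counted as without a run may therefore still have one. With doxycycline, 8 of the 29 members with a run were called higher and 5 lower, against 12 and 6 of the 35 without one, where 34.0% of all genes were called higher and 31.1% lower. The median log2 fold change was 0.09 with a run and 0.02 without. In GFP-positive cells the counts were 14 higher and 9 lower with a run, and 14 and 5 without, against 34.3% and 32.0% of all genes, and the median was 0.08 both with and without a run. The difference between members with and without a run was not tested.

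The members took 1.81% to 4.04% of the gene reads of a library. In the transient set the share was 2.30% and 2.64% in the control libraries and 2.49% and 2.54% with mDux, so the mDux libraries lay between the controls. Without doxycycline it was 2.04% and 2.00%, and with it 1.81% and 1.85%, lower in both libraries. GFP-negative libraries had 4.04% and 3.94%, and GFP-positive libraries 3.93% and 3.88%. The sorted groups did not overlap, but the nearest libraries had 3.94% and 3.93%, and the difference of -0.0917 percentage points became -0.0413 without GFP-negative library A. With 2 libraries against 2, no exact two-sided permutation p can go under 0.333, and no test of these shares is given. Reads counted in repeat families were 15.4% and 15.9% of all counted reads without doxycycline and 33.5% and 34.4% with it, and the members' share of all counted reads was 1.73% and 1.68% without and 1.20% and 1.21% with it.

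The 3 tables differed in the reads held by rows of near-identical copies. Rows named as a member followed by -ps held 1.49% to 1.68% as many reads as the members in transient libraries, 146% to 147% in the unsorted and 17.1% to 18.8% in the sorted libraries. With those rows added, the share became 4.90% to 5.02% without doxycycline, 4.46% to 4.56% with it, 4.68% to 4.75% in GFP-negative and 4.54% to 4.67% in GFP-positive libraries, so that the stable-line tables, which differed about 2-fold before, came close together. Rpl6l, a processed pseudogene of Rpl6 on chromosome 10, had 0 to 5 reads in the transient libraries, 3881 to 7290 in the unsorted and 3173 to 6399 in the sorted ones. Its ratio to Rpl6 was 4.27 in the unsorted libraries without doxycycline and 0.229 in the GFP-negative libraries (means of 2 libraries).

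**Figure D1:**
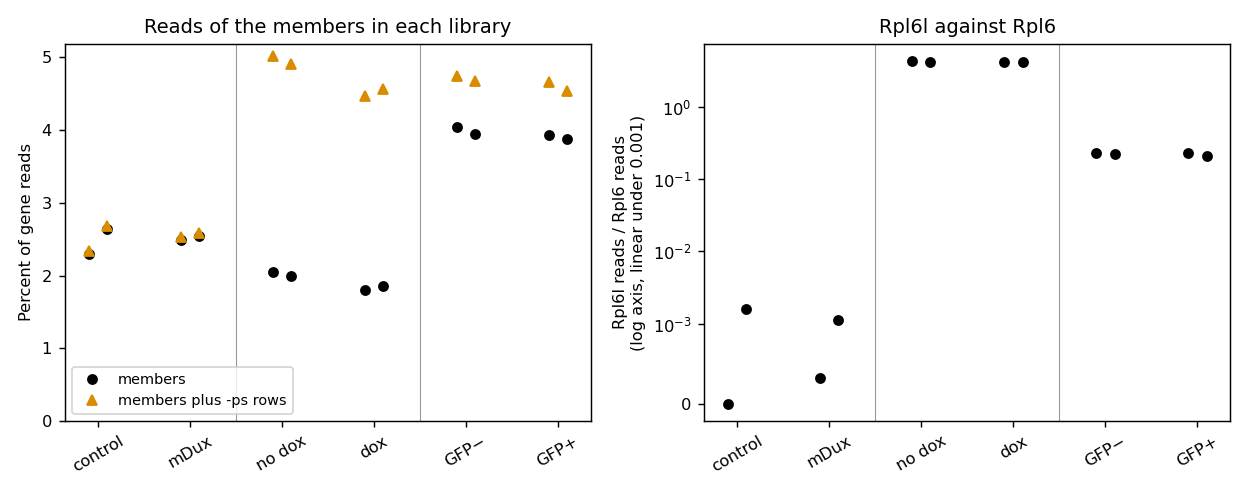
Left, percent of gene reads (linear axis from 0) taken by the 89 members and by the members with their -ps rows, 1 point per library, 2 libraries per group; right, the ratio of Rpl6l to Rpl6 reads in each library on a log axis that is linear under 0.001. The unsorted libraries hold about 2% of reads in the members and 4.46% to 5.02% once the -ps rows are added, and the Rpl6l ratio differs between tables far more than between groups of a table.

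Read length, depth and the counting of copies may differ between tables, their part was not tested, and levels are compared within a table only. Per kilobase, the highest members without doxycycline were Rplp1, a stalk protein, at 2671 and 2614 CPM of gene reads per kilobase in libraries A and B, Rpl8 at 2203 and 2073, and Rpl4 at 1541 and 1511. Rpl38, known in the mouse for its part in translating Hox mRNAs, had 5.45 and 3.70 there, and Rpl3l, the striated muscle form of Rpl3, 0.969 and 1.30. Rps12l1 had 1.28 and 0.782, overlapping Rpl3l, and was not tested in any single-table comparison. The order of Rplp1 over Rpl8 over Rpl4 held in both libraries. In the sorted table Rpl38 stood elsewhere, at 307 and 280 in the GFP-negative libraries. Across the tested members, the more windows a transcript shared with other genes, the lower its level, with a Spearman coefficient across genes of -0.46 in the transient controls (86 genes), -0.18 without doxycycline (88 genes) and -0.30 in GFP-negative libraries (88 genes); the genes share libraries and are not independent.

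The transient comparison asks whether mDUX alters these genes when expressed for 24 h from an introduced transgene. No member was called: 0 of 86 passed an adjusted p of 0.05 in edgeR's quasi-likelihood test, against 2.14% of all 14979 genes tested. DESeq2 also called 0, and 3 members (3.49%) had an unadjusted p under 0.05 in edgeR's test, against 6.50% of all genes. Log2 fold changes ran from -0.38 to 0.39 with a median of 0.02, and the libraries of the groups did not overlap for 11 members higher and 11 lower, 12.8% of the 86 each way, against 19.0% and 16.0% of all genes. The control libraries differed from each other more than the mDux libraries did, and rRNA repeats took 2.35% of reads in control A and 0.0767% in control B. Without control A, 1 member was called higher and 4 lower (1.16% and 4.65%), against 3.34% and 0.588% of all genes in that fit. Without control B, 18 were called higher and 3 lower (20.9% and 3.49%), against 7.62% and 9.02% of all genes. The part of the rRNA reads in this was not tested.

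Single members in the transient set showed the same width of spread. The stalk protein gene Rplp0, which anchors the P1 and P2 proteins on the large subunit, had 433 and 532 CPM in the controls and 580 and 560 with mDux (log2 fold change 0.24 ± 0.12 SE, adjusted p = 0.858). Rps14, a small subunit protein gene whose loss is known from a human anaemia, had 385 and 699 in the controls and 617 and 529 with mDux (0.08 ± 0.28 SE, adjusted p = 0.986), so that the mDux values fell inside the control range. Rps26, which sits at the mRNA exit of the small subunit, had 800.3 and 681 in the controls and 584 and 623 with mDux, without overlap and with an adjusted p of 0.589 (log2 fold change -0.30 ± 0.11 SE). Rpl22l1, the paralogue of Rpl22, had the highest fold change, 18.3 and 23.5 against 27.6 and 27.2 (0.39 ± 0.15 SE, adjusted p = 0.672).

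With doxycycline, members of the family moved in both directions. In the unsorted cells 30 of 88 members were called higher and 12 lower (34.1% and 13.6%), against 34.0% higher and 31.1% lower (65.2% either way) of all 16229 genes tested, and the median log2 fold change was 0.08 against 0.00 over all genes. No member changed 2-fold, while 22.1% of all genes did so with an adjusted p under 0.05. Scaling by gene totals alone lowered the members and all genes alike, to medians of -0.14 and -0.22, so that the members' median lay 0.07 above that of all genes under both scalings. With gene totals 11 members were called higher and 43 lower (12.5% and 48.9%), against 25.2% and 46.0% of all genes. Single values given below with gene totals carry the same shift. Under all 4 scalings tried, 11 members remained higher and 12 lower (12.5% and 13.6%), against 25.2% and 30.4% of all genes. Small subunit genes had 16 higher and 5 lower of 35, and large subunit genes 14 and 7 of 53; with gene totals these were 3 and 16, and 8 and 27, so that the subunit with the larger share called higher changed with the scaling. The difference between the subunits was not tested. The 31 members whose -ps rows held more reads than the member itself had 16 higher and 4 lower (median 0.20). The other 57 had 14 higher and 8 lower (median 0.01), against 34.0% and 31.1% of all genes. With gene totals these were 6 and 10, and 5 and 33, against 25.2% and 46.0%. The part of the copies in this was not tested.

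**Figure D2:**
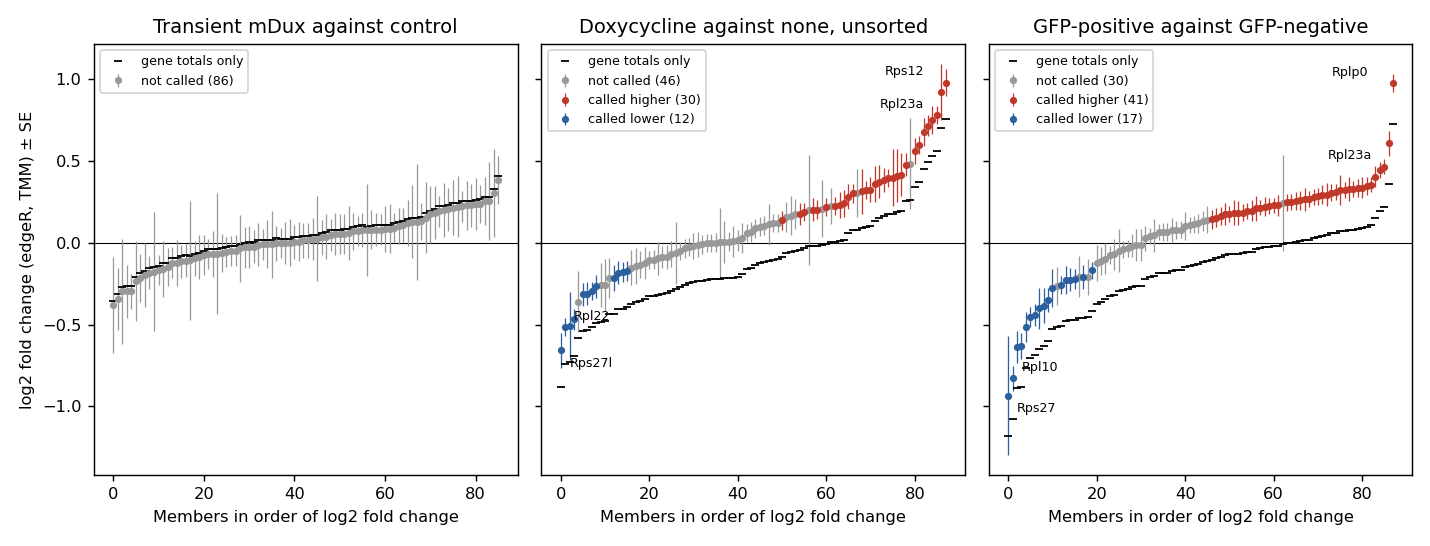
Log2 fold change of every tested member in each comparison, in order from lowest to highest, with SE bars (edgeR with TMM factors, 2 libraries against 2); red and blue points passed an adjusted p of 0.05, and black dashes give the same gene with gene totals alone. None of 86 members was called in the transient set, 42 of 88 with doxycycline and 58 of 88 between the sorted groups, and the dashes lie below the points in both stable-line panels.

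Among the members that rose with doxycycline, the small subunit gene Rps12 had 31.0 and 28.8 CPM without the drug and 57.1 and 60.6 with it (log2 fold change 0.98 ± 0.08 SE, adjusted p = 7.1e-26). Most windows of Rps12 are shared with its copies, and with -ps reads added the change was 0.48. Rpl23a, a protein at the exit tunnel, had 5.22 and 4.96 against 8.48 and 10.7 (0.92 ± 0.17 SE, 0.40 with -ps reads). Rpl28 had 27.0 and 26.1 against 41.2 and 48.0 (0.75 ± 0.09 SE, 0.45 with -ps reads). For these members both treated libraries stood above both untreated ones, and adding the -ps rows changed the size of the rise but not its direction; copies with other names were not added.

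Rplp0 rose from 293 and 279 CPM to 432 and 433 (0.60 ± 0.06 SE, adjusted p = 1.7e-21), and adding its -ps row left 0.60. Of its windows 41.8% are also in 7 other genes, most of them in Gm8730, whose reads were not added. Its stalk partners moved less: Rplp1 had 1226 and 1196 against 1323 and 1344 (0.14 ± 0.06 SE, adjusted p = 0.0278) and reversed to -0.08 with gene totals, and Rplp2 had 27.9 and 30.2 against 30.2 and 28.5 (0.01 ± 0.09 SE). Rpl7a, Rps20, Rpl9, Rps10 and Rpl23 were called higher under all 4 scalings and with -ps reads added, by 0.39 to 0.68 on the log2 scale. That step adds nothing to a member without a -ps row, such as Rpl23 in the transient table. The genes sharing most windows with Rps20, Rps10 and Rpl23 were Gm4332, RPS10-NUDT3 and Gm9794, whose reads were not added. Rpl3, which lies close to the peptidyl transferase centre, went from 63.6 and 62.9 to 104 and 104 (0.72 ± 0.07 SE), but with -ps reads added the change was 0.08 with an adjusted p of 0.277.

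Among the members that fell, Rps27l, the paralogue of Rps27 that is known as a p53 target, went from 26.4 and 27.6 CPM to 15.7 and 18.4 (-0.66 ± 0.11 SE, adjusted p = 1.0e-08). Rpl22, whose loss in the mouse affects mainly T cells, went from 343 and 329 to 240 and 230 (-0.52 ± 0.06 SE, adjusted p = 1.2e-16). Rpl15 went from 136 and 130 to 96.8 and 95.2 (-0.47 ± 0.06 SE; -0.16 with -ps reads). Rpl27a fell by 0.31 and Rpsa, which doubles as a laminin receptor, fell by 0.29 on the log2 scale. Rpl29 fell by 0.51 from 97 and 91 reads to 39 and 40 in libraries of lower depth. Rps26 was called lower by 0.31, but with -ps reads added the change was 0.03.

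Rpl5 and Rpl11, which with 5S RNA bind the p53 regulator MDM2, had log2 fold changes of -0.01 ± 0.08 and 0.01 ± 0.13 (SE; adjusted p = 0.910 and 0.973). Rps6, the substrate of the S6 kinases, had 17.6 and 16.0 CPM against 22.6 and 20.5 (0.36 ± 0.11 SE, adjusted p = 0.00278), which was 0.14 with -ps reads. Rpl13a, known in interferon-treated human monocytes for silencing inflammatory mRNAs, had 316 and 301 against 327 and 328 (0.09 ± 0.06 SE, adjusted p = 0.155).

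**Figure D3:**
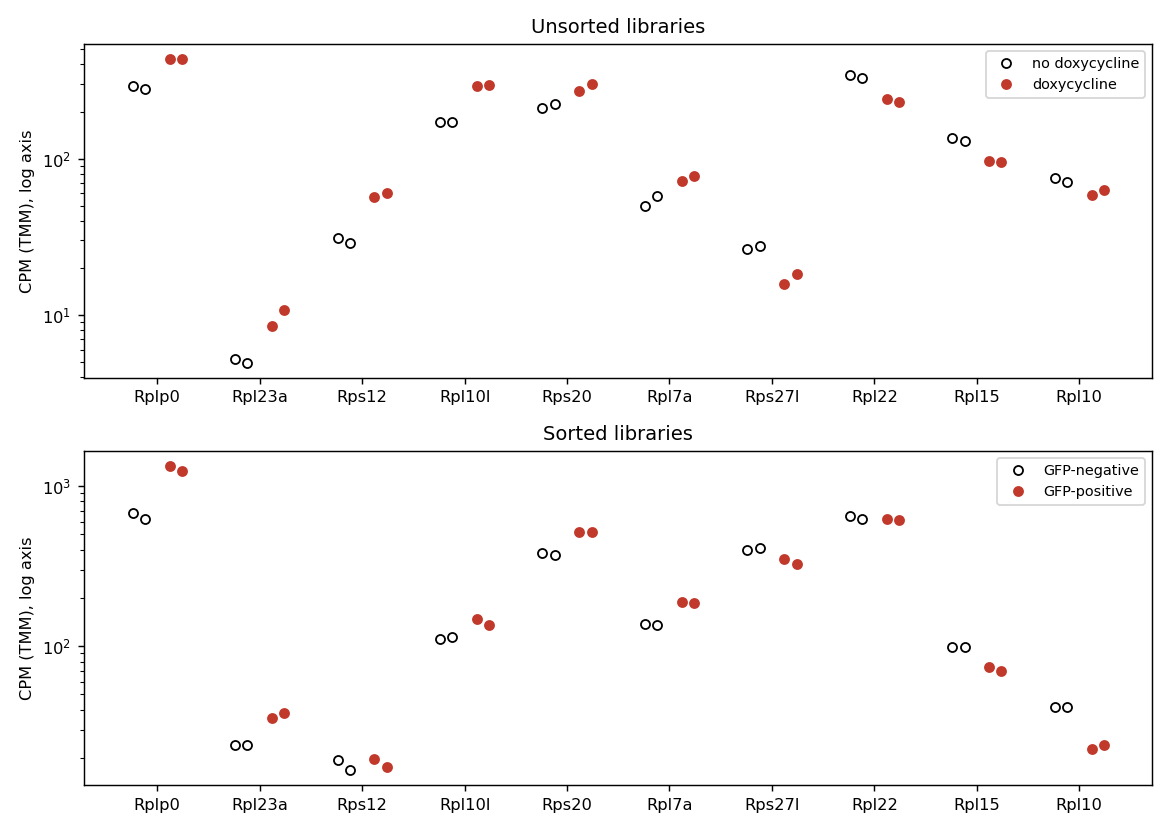
CPM with TMM factors on a log axis for 10 members in the unsorted (top) and sorted (bottom) libraries, open points for the group without doxycycline or GFP-negative, red points for doxycycline or GFP-positive, 2 libraries each. Rplp0, Rpl23a, Rpl10l, Rps20 and Rpl7a are higher and Rps27l, Rpl15 and Rpl10 lower in both panels, while Rps12 and Rpl22 separate in the top panel only.

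Sorting compares cells in which the MERVL reporter was on with cells in which it was off, both after doxycycline. In GFP-positive cells 41 of 88 members were called higher and 17 lower (46.6% and 19.3%), against 34.3% and 32.0% (66.3% either way) of all 16403 genes tested, with a median log2 fold change of 0.13 against 0.00 over all genes. With gene totals alone 5 were called higher and 40 lower (5.68% and 45.5%), against 24.7% and 47.0% of all genes. The medians were then -0.12 for the members and -0.25 for all genes, and the members' median lay 0.12 above that of all genes under both scalings. Under all 4 scalings 5 members were higher and 16 lower (5.68% and 18.2%), against 24.7% and 31.6% of all genes. No member rose or fell 2-fold with TMM factors, while 25.2% of all genes did so with an adjusted p under 0.05. With gene totals 2 of 88 members did so, against 4695 of 16403 genes, and with the members' reads set equal 2, against 4609. Without GFP-negative library B, 27 were called higher (30.7%), against 30.05% of all genes in that fit, and without GFP-negative library A 10 were called lower (11.4%), against 27.0% of all genes.

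Rplp0 had the largest rise. It had 675 and 622 CPM in GFP-negative and 1325 and 1232 in GFP-positive libraries (log2 fold change 0.98 ± 0.06 SE, adjusted p = 5.6e-09; 0.73 with gene totals), on chromosome 5 at 115559467 to 115563727. Rplp1 had 922 and 851 against 1165 and 1091 (0.35 ± 0.06 SE) and Rplp2 had 625 and 553 against 720 and 690 (0.26 ± 0.06 SE), so all 3 stalk genes were called higher, although with gene totals Rplp1 and Rplp2 had 0.10 and 0.01. Other members higher under all 4 scalings included Rpl23a, with 24.3 and 24.0 against 35.4 and 38.4 (0.61 ± 0.08 SE), Rps20 at 0.47 and Rpl7a at 0.45. Rpl6 had 489 and 481 against 620.3 and 621 and Rpl19 had 259 and 254 against 302 and 347, and with gene totals neither was called. Rpl5 and Rpl11 were not called here either, with log2 fold changes of -0.11 and 0.03 (adjusted p = 0.272 and 0.761).

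Among the falls, Rpl10 went from 41.4 and 41.8 CPM in GFP-negative to 22.8 and 24.1 in GFP-positive libraries (-0.83 ± 0.07 SE, adjusted p = 4.7e-07; -0.46 with -ps reads). Rpl30 went from 51.5 and 53.3 to 36.4 and 31.3 (-0.63 ± 0.08 SE), Rpl12 fell by 0.44 and Rpl15 fell by 0.45 on the log2 scale. Rps27 had the lowest fold change (-0.93 ± 0.36 SE, adjusted p = 0.0365) on 61 and 99 reads against 24 and 13. With -ps reads added, Rpl34 went from -0.63 to -0.02 and was no longer called (adjusted p = 0.791). The direction turned for Rpl10a from -0.52 to 0.12, for Rps6 from -0.40 to 0.24 and for Rpl3 from -0.21 to 0.25. With those reads added, the members called under all 4 scalings were 5 higher and 11 lower here (background 24.7% and 31.6%), and 10 and 10 with doxycycline (background 25.2% and 30.4%). Only members with -ps rows gained reads, so these background shares could hardly move and are no comparison for this step.

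In GFP-positive cells most calls of higher members lay among genes with a high level. Of the 44 members above the median level of the GFP-negative libraries, 29 were called higher and 2 lower in GFP-positive cells; of the 44 at or under it, 12 were higher and 15 lower, against 34.3% higher and 32.0% lower of all genes. With gene totals the counts were 2 and 13 above the median level and 3 and 27 at or under it, against 24.7% and 47.0% of all genes. The median log2 fold changes were 0.20 above and -0.07 at or under the median level. The Spearman coefficient between level per kilobase and log2 fold change across the 88 members was 0.53 (Pearson 0.55 on log2 level), given as a description of genes that share libraries. With doxycycline it was -0.15, with 13 higher and 9 lower above the median level and 17 and 3 at or under it, against 34.0% and 31.1% of all genes; with gene totals these were 5 and 28, and 6 and 15, against 25.2% and 46.0%. The level enters the fold change as its denominator, so noise in the level lowers this coefficient. Shared windows had a Spearman coefficient of -0.30 with level and -0.09 with log2 fold change in the sorted comparison, and -0.18 and 0.22 with doxycycline. The part of either in these patterns was not tested.

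**Figure D4:**
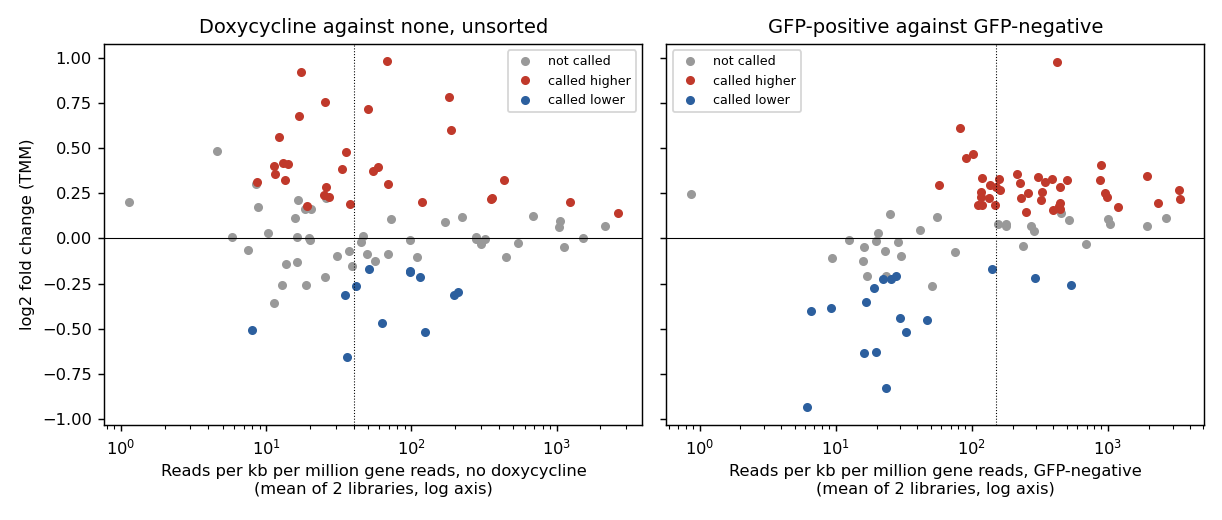
Log2 fold change (TMM) against level in CPM of gene reads per kilobase (log axis, mean of the 2 reference libraries) for 88 members, left for doxycycline and right for GFP-positive against GFP-negative; the dotted line is the median level. In the sorted panel 29 of 44 members right of the line are called higher and 15 of 44 at or left of it lower.

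The unsorted and sorted comparisons share no library. Of the 88 members tested in both, 17 were called higher in both, 4 lower in both, 7 in opposite directions and 16 in neither. Of the 30 members higher with doxycycline, 17 were higher, 9 not called and 4 lower in GFP-positive cells. The matching counts over all genes were 3949, 1079 and 249. Of the 41 members higher in GFP-positive cells, 17 were higher, 21 not called and 3 lower with doxycycline. Over all genes these were 3949, 1090 and 220, so a smaller share of the members than of all genes was higher in both. Among all genes tested in both, 25.8% were higher in both, 22.4% lower in both, 1.63% higher with doxycycline and lower in GFP-positive cells, and 1.44% the reverse. Rplp0, Rpl23a, Rps20 and Rpl7a were higher under all 4 scalings in both comparisons, and Rpl10, Rpl15, Rpl27a and Rps27l were lower under all 4 in both, although the fall of Rpl10 with doxycycline was not called with -ps reads added.

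The 7 members called in opposite directions were chosen after their values were seen. Rpl3, Rpl12, Rps6 and Rps27a were higher with doxycycline and lower in GFP-positive cells, and Rps18, Rps26 and Rpsa were the reverse. Rpl12 went from 156 and 154 CPM to 195 and 187 with doxycycline (0.30 ± 0.06 SE) and from 68.8 and 62.9 to 48.1 and 49.1 in GFP-positive cells (-0.44 ± 0.07 SE); adding its -ps rows left both values, while 49.0% of its windows are also in 14 other genes, most of them in Gm10275, whose reads were not added. Rpsa went from 356 and 362 to 279 and 306 (-0.29 ± 0.06 SE) and from 736 and 751 to 827 and 857 (0.18 ± 0.05 SE; -0.07 with gene totals). With -ps reads added, Rpl12, Rps18 (-0.14 and 0.24) and Rpsa (-0.18 and 0.17) kept opposite calls. Rpl3 then had 0.08, not called, and 0.25, Rps6 had 0.14 and 0.24, Rps26 had 0.03, not called, and 0.28, and Rps27a had 0.07 and 0.09, neither called. The comparisons ask different questions, and the difference between them was not tested.

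A ratio of a paralogue to its parent within a library needs no scaling factor. No -ps reads were added to the ratios, and 85.4% of the windows of Rpl10 are also in other genes. Rpl10l to Rpl10 was 2.26 and 2.43 reads per read without doxycycline and 4.998 and 4.72 with it, 2.67 and 2.73 in GFP-negative and 6.46 and 5.66 in GFP-positive libraries, so the group means differed 2.07-fold and 2.24-fold without overlap. In the transient set the ratio was 5.90 and 4.73 in the controls and 4.77 and 5.26 with mDux, with overlap. Rpl10l itself went from 170 and 172 CPM to 292 and 297 with doxycycline (0.78 ± 0.06 SE, adjusted p = 1.0e-31) and from 111 and 114 to 147 and 136 in GFP-positive cells (0.33 ± 0.06 SE, adjusted p = 1.7e-04; 0.09 with gene totals, adjusted p = 0.184). Rpl10 went from 75.5 and 70.8 to 58.5 and 63.0 with doxycycline (-0.27 ± 0.07 SE); with -ps reads added the change was -0.14 with an adjusted p of 0.0501, not called.

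The ratio of Rpl22l1 to Rpl22 went from 0.0711 and 0.0806 to 0.102 and 0.0972 with doxycycline. It was 0.168 and 0.188 for GFP-negative cells against 0.194 and 0.210 for GFP-positive cells, and 0.0478 and 0.0687 against 0.0846 and 0.0784 in the transient set, higher without overlap in all 3 comparisons. In the unsorted cells this came with the fall of Rpl22, while Rpl22l1 had 24.4 and 26.5 CPM against 24.5 and 22.3 (-0.12 ± 0.10 SE, adjusted p = 0.280). Rps27l to Rps27 was 5.86 and 5.78 without and 3.09 and 4.30 with doxycycline, on 44 to 80 reads of Rps27. Rps4l to Rps4x moved both ways, from a mean of 0.777 to 0.973 with doxycycline and from 0.172 to 0.149 in GFP-positive cells. In the transient set it was lower without overlap, from 1.97 to 1.53. By CPM, 19.0% of all genes were higher and 16.0% lower without overlap in the transient set. Of the 88 members tested in the stable line, 44.3% were higher and 26.1% lower without overlap with doxycycline. In GFP-positive cells these shares were 52.3% and 23.9%. Of the windows of Rpl22l1, 57.3% are also in other genes. With 2 libraries against 2 no exact two-sided permutation p goes under 0.333, and the ratios were not tested.

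For Rpl36al to Rpl36a the ratio overlapped between unsorted groups and was higher in GFP-positive cells, with means of 6.70 and 8.29. Rpl7l1, a nucleolar relative of Rpl7, was lower against Rpl7 in both stable-line comparisons, by 0.937-fold and 0.797-fold. Rpl39l to Rpl39 overlapped in both, and in the transient set it was lower without overlap, from a mean of 0.548 to 0.431. By CPM, 16.0% of all genes were lower without overlap there. Rpl3l had at most 81 reads in a library and was not called in any comparison. Rps3a1 had 132 to 242 reads in the unsorted libraries while its processed copies Rps3a2 and Rps3a3 had 7587 to 15063, so the 3 rows cannot be told apart as genes; Rps3a3 was called higher in GFP-positive cells (0.31 ± 0.05 SE, adjusted p = 8.5e-05) and Rps3a1 was not (-0.07 ± 0.10 SE, adjusted p = 0.542). Rpl6l and Rpl6 both had a positive change there, 0.30 and 0.36.

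**Figure D5:**
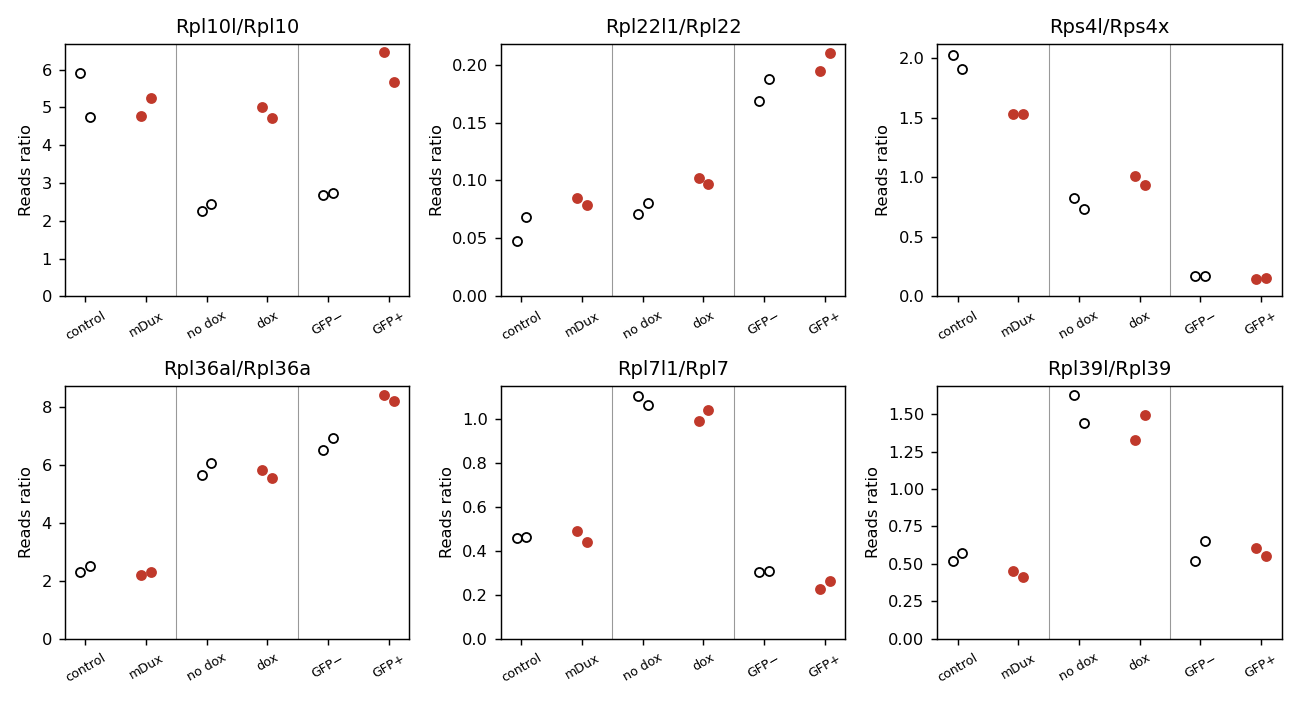
Ratio of paralogue reads to parent reads (linear axis from 0) in each of the 12 libraries for 6 pairs; open points are the controls, cells without doxycycline and GFP-negative cells, red points are mDux, doxycycline and GFP-positive cells, and vertical lines part the 3 tables. Rpl10l/Rpl10 stands at 2.26 to 2.73 in the reference groups of the stable line and at 4.72 to 6.46 in the others, and Rpl22l1/Rpl22 is higher in the red group of each table.

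Related lists put the members beside other genes of translation, where 34.0% of all genes were called higher and 31.1% lower with doxycycline and 34.3% and 32.0% in GFP-positive cells. With gene totals these shares were 25.2% and 46.0%, and 24.7% and 47.0%. Among ribosomal proteins with names outside the rule, Rack1, the scaffold on the small subunit, was called higher with doxycycline, from 1970 and 1844 CPM to 2092 and 2206 (0.17 ± 0.06 SE, adjusted p = 0.00794; -0.05 with gene totals), and in GFP-positive cells (0.40 ± 0.06 SE; 0.15 with gene totals); Fau was not called. Of 21 other genes with TOP mRNAs, 7 were higher and 8 lower with doxycycline (median 0.03), and 12 were higher and 2 lower in GFP-positive cells (median 0.21); with gene totals the counts were 3 and 13, and 6 and 8. Of the mitochondrial ribosomal protein genes, 15 of 75 were higher and 31 lower with doxycycline (median -0.13), and 14 of 77 were higher and 38 lower in GFP-positive cells (median -0.18); with gene totals these were 5 and 49, and 4 and 58. Of 14 genes of growth signalling to ribosomal protein mRNAs, 7 were higher and 3 lower with doxycycline, and 6 and 4 in GFP-positive cells, which with gene totals were 4 and 6, and 2 and 7. In the transient set none of 3 genes outside the rule, 21 other TOP, 75 mitochondrial and 14 growth signalling genes was called. Of all genes tested there, 2.14% were called. In edgeR's test 1 of the 75 mitochondrial genes and none of the others had an unadjusted p under 0.05, against 6.50% of all genes.

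GFP-negative cells against cells without doxycycline compares drug-treated cells with the reporter off to untreated cells, across tables. In the joint fit of 8 libraries 64 of 89 members were called higher and 13 lower, against 43.6% and 34.2% of 17820 genes, with a median of 1.73; the median of all genes was 0.14. With -ps reads added it was 48 and 33 with a median of 0.70, against 43.6% and 34.2% of all genes and a median of 0.14. Only members with -ps rows gained reads in that step. With the members' reads set equal it was 44 and 37 (49.4% and 41.6%) with a median of 0.15, against 10.0% and 76.4% of all genes and a median of -1.41. Sorting, depth, library set and the counting of copies differ between these groups and cannot be told apart from the contrast. Rps21, the small subunit member with the highest log2 fold change (6.33), lies far above the members' median, with 155 reads in library A without doxycycline and 29843 in GFP-negative library A.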

How the data were processed

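The authors deposited raw read counts for genes and repeat families in 3 tables, 1 per comparison, per the file headers; Novoalign 2.8, DESeq2 and mm10 are named per the submitters' processing notes. How reads were counted (tool, annotation, strand, several matches) was not given in the sources used here. Libraries were poly(A)-selected and stranded per the labels' protocols. The members and gene lists were chosen with earlier results of these data known. Counts were tested on all genes and repeat families with edgeR 4.0.16 (R 4.3.3, limma 3.58.1) and its quasi-likelihood F-test, after filterByExpr (minimum count 10, minimum total 15), with TMM factors from genes and Benjamini-Hochberg adjustment, threshold 0.05. CPM are TMM-scaled; levels are CPM of gene reads per kilobase. The scalings were TMM, DESeq2 size factors (DESeq2 1.42.0), gene totals alone, and the members' reads set equal. The named members are the stalk, 5S-binding and paralogue genes and a few of known function, the 8 largest called rises and falls without overlap, and the 3 highest and 3 lowest in level. Column names number libraries from 0 and titles from 1, so columns were tied to groups only. The test was checked on simulated counts with a single dispersion for all genes and few changed genes. The stable-line data differ from that setting, so the check does not cover them. Transcript windows and sequences came from GENCODE M21 and RefSeq, read with Biopython 1.88 in Python 3.11.15. Counted reads were 17914954 to 21988401 per transient, 14365741 to 18388836 per unsorted and 31870748 to 53826590 per sorted library. Alternatives were other scalings, filters, the DESeq2 test, added -ps reads, left-out libraries and a replicate block. Libraries of a group differed by more than sampling noise. Some genes are not reported here.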

Additional observations from a re-analysis of the deposited data

Results flagged for a closer look

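Rows named as a member followed by -ps were outside the comparisons and held reads in every library, with no control for them. As a percent of the members' reads, they ranged from 1.49% to 1.68% in the transient libraries, from 145.6% to 147.3% in the unsorted libraries and from 17.1% to 18.8% in the sorted libraries. The cause was not tested.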

How the results depend on the processing

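With 2 libraries a group, leaving out a library rests on the assumption that the lone library varies like the other group. Rows of near-identical copies held different shares of reads in each table, and scaling by gene totals shifted the medians of the members and of all genes alike. The settings on members with at most the median share of windows in other genes, and on 4 libraries alone, were chosen after seeing the data.
With gene totals, doxycycline gave 11 members higher and 43 lower with a median of -0.14, and the sorted comparison 5 and 40 with -0.12, while the medians of all genes were -0.22 and -0.25. With members' reads set equal, doxycycline gave 19 lower and a median of -9.05e-05, and sorted 7 higher, 36 lower and -0.0898, where all genes had medians of -0.075 and -0.21. Without the filter the medians were 0.0229 and 0.0906, and the DESeq2 test called 7 lower with doxycycline. Members with few shared windows, here the 45 at or under the median share, had 12 higher and 9 lower with doxycycline (median 0.00682). The 43 above that share had 18 higher and 3 lower (median 0.14), against 34.0% and 31.1% of all genes. Between sorted groups the 45 had 22 higher and 7 lower (median 0.16). The 43 had 19 and 10 there (median 0.10), against 34.3% and 32.0% of all genes. With -ps reads the sorted median was 0.172.
With gene totals, which shift all genes down, the sign differed for 26 of 88 members (29.5%) with doxycycline, against 12.8% of all genes, and for 34 of 88 (38.6%) between sorted groups, against 13.9%. Sizes were not matched between members and all genes. Among the named members with a call under either setting, it turned with doxycycline for Rplp1 (-0.083), Rplp2 (-0.21), Rpl13a (-0.13), Rpl6 (-0.21), Rps3a2 (-0.12), Rpl8 (-0.15) and Rpl4 (-0.22). Between sorted groups they turned for Rpsa (-0.070), Rpl11 (-0.22), Rpl13a (-0.0202), Rps14 (-0.14), Rpl7 (-0.085), Rpl22l1 (-0.11), Rpl39l (-0.18), Rpl39 (-0.17), Rps4l (-0.21), Rps4x (-0.000944), Rps10 (-0.0202) and Rpl8 (-0.14), and with members' reads set equal for Rpsa (-0.037), Rpl11 (-0.19), Rpl7 (-0.052), Rpl22l1 (-0.073), Rpl39l (-0.15) and Rps4l (-0.18). With -ps reads Rps26 (0.031) and Rpl38 (-0.28) turned with doxycycline, and Rps6 (0.24), Rpl3 (0.25), Rpl28 (0.32) and Rpl10a (0.12) between sorted groups.
For GFP-negative against no doxycycline, members lower were 20 with DESeq2 size factors and with 4 libraries, 27 with gene totals, 37 with members' reads set equal, 33 with -ps reads and 2 with few shared windows (38 higher). With DESeq2 size factors 22.5% of the members and 40.0% of all genes were lower, and with gene totals 30.3% and 51.2%. With the members' reads set equal these were 41.6% and 76.4%, and with -ps reads 37.1% and 34.2%. The median of 1.73 became 1.52 with DESeq2 size factors and the DESeq2 test, 1.13 with gene totals, 0.15 with members' reads set equal, 1.67 with no filter or a CPM filter, 0.70 with -ps reads, 1.81 under a strict reading of the suffix, 1.90 with few shared windows and 1.55 with 4 libraries. The median of all genes moved from 0.14 to -0.43 with gene totals and -1.41 with members' reads set equal. The members' median lay 1.59 above it with TMM and 1.56 above it under both of these scalings. With -ps reads it lay 0.57 above.
The difference in the members' share of -0.192 percentage points with doxycycline became -0.498 of all reads and -0.452 with -ps reads, and that of -0.0917 between sorted groups became -0.582 of all reads. The causes were not tested beyond what each alternative changes by construction.
Leaving out a library gave 0 to 18 members higher and 0 to 4 lower in the transient set (median -0.0386 to 0.112), 22 to 28 and 10 to 13 with doxycycline (0.0603 to 0.0875), 27 to 44 and 10 to 19 between sorted groups (0.0832 to 0.141), and 63 to 65 and 10 to 13 for GFP-negative against no doxycycline (1.73 to 1.78). In every stable-line fit with a library left out, a smaller share of the members than of all genes was called lower. The share called higher was above that of all genes in each sorted and GFP-negative fit. With doxycycline it lay on either side of that of all genes. Each such fit has a lone library in a group, so these counts carry little weight. Rps14 had -0.29 without control A and 0.56 without control B. The members' shares of gene reads differed by -0.123 to 0.218 in the transient set, -0.216 to -0.168 with doxycycline and -0.142 to -0.0413 between sorted groups.
The replicate block by column number gave 0 and 0, 30 and 12, and 38 and 16 members; the numbers share only an index (correlations of deviations -0.21, -0.05 and -0.07).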
